A study of Mus musculus with 16 samples.

Results

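Liver RNA-Seq libraries of male and female control mice were compared, 4 of each sex, which are 8 of the 16 mice in the series. The mice were chosen by their labels alone, as C57BL/6 wildtype controls of 11 weeks of age, and the rest of the series is 4 male and 4 female *Fatp2*-/- mice of the same age. *Fatp2*, also named *Slc27a2*, encodes a fatty acid transport protein and very-long-chain acyl-CoA synthetase, and the *Fatp2*-/- mice lack it in the whole body. Every mouse was fed standard chow at will, and no treatment is named. The hour of collection, the stage of the estrous cycle and serum hormones are not given in the sources used here, the controls were bought from a supplier and the *Fatp2*-/- line came from another background by backcrossing, so genotype and origin of the mice cannot be told apart. The analysis was limited to autosomal genes, of which 13681 passed the filter on low counts among 14079 genes tested on every chromosome. Counts are given as CPM, scaled to library size with TMM factors, and levels of different genes are compared only as FPKM, the deposited values per kilobase of gene. A gene was called where the adjusted p of edgeR's quasi-likelihood test was at most 0.05.

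Total counts ran from 14354302 to 18061619 in control males and from 10657034 to 15808320 in control females. *Xist*, the RNA of the inactive X chromosome, had 5 to 14 counts in the male libraries and 7023 to 19621 in the female libraries, so each library had the sex of its label. Summed over 12 hepatocyte markers, the libraries held 98926 to 113721 CPM in males and 58347 to 102618 CPM in females. Female 4 had the smallest total of the series, and 27810 genes were counted in it, where the other 7 control libraries had no more than 21862. Female 4 was also the lowest female for 56.8% of the genes called higher in males, against 37.9% of all genes tested. Female 3 was the highest female for 51.9% of the genes called higher in males and the lowest female for 46.5% of those called lower, against 28.6% and 28.9% of all genes tested. Mice are numbered male 1 to 4 and female 1 to 4, and values are given in that order.

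The rodent liver differs between the sexes in the genes for drug, steroid and lipid metabolism and in the proteins it secretes. The difference is known to follow the pattern of growth hormone from the pituitary, which comes in pulses in males and more steadily in females, and which acts on hepatocytes through the growth hormone receptor, JAK2 and STAT5b. Cytochrome P450 enzymes oxidize drugs, steroids and fatty acids, sulfotransferases and glucuronosyltransferases then add groups that make the products easier to excrete, and major urinary proteins bind pheromones and carry them into male urine.

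In the control livers, 1652 autosomal genes (12.1% of those tested) were called. Of these, 834 (6.10%) were higher and 818 (5.98%) were lower in males. The median log2 difference, male minus female, was 0.66 over the genes called higher and -1.08 over those called lower, beside -0.03 over all autosomal genes tested. Differences of at least 1 on the log2 scale were found for 202 genes called higher (1.48%) and 457 called lower (3.34%). Those of at least 5 were found for 13 genes called higher and 22 called lower. A mean level of at least 100 FPKM in the sex with more of the gene was reached by 190 of the genes called higher and 38 of those called lower. The number of all tested genes at that level is not given here, so these counts do not show a male bias of abundant genes. The TMM factors ran from 0.948 to 0.951 in control males and from 0.952 to 1.28 in control females. Whether the 190 and 38 depend on this scaling was not tested. The 4 male and 4 female values did not overlap for 735 of the genes called higher and 632 of those called lower, and 285 called genes overlapped. Without overlap, whether called or not, males were above females for 1157 genes (8.46% of those tested) and females above males for 989 genes (7.23%). With upper-quartile factors 598 genes were higher and 1146 lower in males and the median over all genes stood at -0.14, while RLE factors gave 840 and 823. With limma on log2(FPKM + 0.1), which changes the unit, the transform and the test together, the counts were 403 and 1659 and the median stood at -0.24. In a fit of only the 8 control mice they were 315 and 386. Without female 3 the counts became 1615 and 1353, and without male 3 they became 515 and 477. Genes called higher numbered 529 without female 2, and those called lower numbered 499 without female 1, 502 without male 1 and 531 without male 2. In every fit that left out 1 control mouse, 402 of the 834 and 334 of the 818 stayed called. No called gene was called in the opposite direction under any of these settings. Changes of sign without a call were not counted over all called genes.

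**Figure D1:**
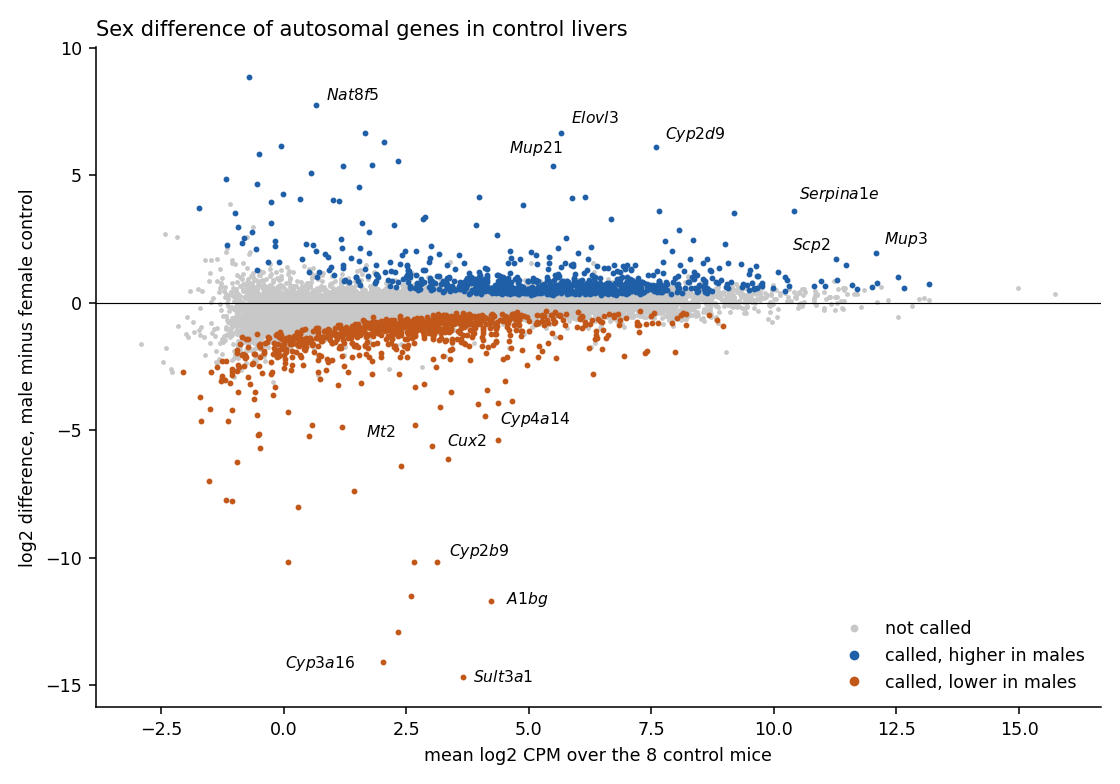
Log2 difference in CPM, male minus female control (vertical axis), against the mean log2 CPM over the 8 control mice (horizontal axis), with 1 point per autosomal gene tested. The 834 genes called higher in males include highly expressed genes such as *Mup3* and *Serpina1e*, and the points farthest from 0 are genes lower in males, down to *Sult3a1* at -14.70.

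Of 60 cytochrome P450 genes tested, 13 were higher and 11 lower in males, with a median log2 difference of 0.23. The share called was 40.0%, beside 12.1% of all autosomal genes tested. In the *Cyp2d* family, whose members hydroxylate drugs and steroids, 3 of 7 genes tested were higher and none was lower. *Cyp2d9*, a steroid 16α-hydroxylase of mouse liver (chromosome 15, 86246307 to 86249663 in the C57BL/6NJ coordinates of the deposited table), had 1826, 1642, 1548 and 1405 CPM in control males, against 27.1, 23.9, 19.9 and 21.9 CPM in control females. Every male stood far above every female, and the log2 difference was 6.11 (S.E. 0.22, adjusted p = 1.7e-11). Per kilobase it averaged 1098 FPKM in males and 18.8 FPKM in females. *Cyp2d10* (log2 1.01, adjusted p = 0.0012) and *Cyp2d22* (log2 0.82, adjusted p = 0.017) were also higher in males, by less. *Cyp2d26*, *Cyp2d40*, *Cyp2d11* and *Cyp2d12* did not pass the test, and *Cyp2d26* averaged 791 ± 72.5 CPM in males and 668 ± 302 CPM in females (S.D., n = 4 each). The summed counts of the family differed by 1.40 (S.E. 0.20, adjusted p = 0.00022).

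The *Cyp2d* genes lie side by side and are near copies, and the table names *Cyp2d9* and *Cyp2d11* only in its KEGG column, so the split of reads between neighbours is uncertain. The 250 bases before the RefSeq start of *Cyp2d9* and of *Cyp2d11* are identical at 82.3% of aligned positions. Only *Cyp2d9* was called, while *Cyp2d11*, with a difference in the same direction (log2 0.71, adjusted p = 0.056), missed the threshold. Both are shown because they are among the most alike start regions with different calls, from the RefSeq promoters of build GRCm38.p6, 5′ to 3′ on the strand of the gene, with the bases that differ from the other in capitals.
*Cyp2d9* (chr15:82452127-82452376, plus strand): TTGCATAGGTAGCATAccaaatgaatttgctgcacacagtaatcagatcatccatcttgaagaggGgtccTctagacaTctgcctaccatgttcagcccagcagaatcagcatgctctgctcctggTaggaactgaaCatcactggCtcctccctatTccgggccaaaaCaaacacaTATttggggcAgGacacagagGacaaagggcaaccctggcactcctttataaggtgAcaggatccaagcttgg
*Cyp2d11* (chr15:82394023-82394272, minus strand): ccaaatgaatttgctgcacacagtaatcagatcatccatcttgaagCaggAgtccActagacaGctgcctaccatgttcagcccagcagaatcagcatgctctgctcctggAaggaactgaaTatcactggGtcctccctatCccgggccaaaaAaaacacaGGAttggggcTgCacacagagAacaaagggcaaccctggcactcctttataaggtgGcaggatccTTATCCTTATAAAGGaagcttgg
Across the families, 172 of 217 members tested had a promoter in the RefSeq table, and 18 of 878 pairs within a family were identical at 70% or more of positions. In 10 of those 18 pairs the calls differed, and in 8 they were the same. Only *Cyp2c29* and *Cyp2c39* were called in opposite directions, and the other differing pairs set a called gene beside a gene that did not pass. The share of differing calls over all 878 pairs was not counted, so these numbers do not relate alike starts to the calls. *Mup4* and *Mup6* were 90.9% identical with a call for *Mup4* alone, and *Cyp2b9* and *Cyp2b13* were 99.2% identical with both lower in males.

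In the *Cyp2c* family, which oxidizes drugs and arachidonic acid, 2 of 8 genes tested were higher and 2 were lower. *Cyp2c29* had 1165, 1100, 1296 and 1269 CPM in control males, against 676, 356, 751 and 207 CPM in control females (log2 1.28, S.E. 0.31, adjusted p = 0.014). *Cyp2c44*, an epoxygenase of arachidonic acid, was higher too (log2 1.06, adjusted p = 0.0023). *Cyp2c38* averaged 13.4 ± 1.14 CPM in control males and 72.9 ± 7.36 CPM in control females (log2 -2.44, S.E. 0.24, adjusted p = 3.7e-06). Males and females did not overlap for these genes. *Cyp2c39* had 20.8, 0.689, 0.956 and 0.875 CPM in control males, against 227, 153, 8.65 and 8.51 CPM in control females, and its call (log2 -4.09, adjusted p = 0.045) came with overlap and held in 3 of the 8 fits that left out 1 mouse. Its start region was identical to that of *Cyp2c29* at 74.1% of positions, while the differences ran in opposite directions. Both are shown for that reason, at the RefSeq starts that are most alike, with differing bases in capitals.
*Cyp2c29* (chr19:39286835-39287084, plus strand): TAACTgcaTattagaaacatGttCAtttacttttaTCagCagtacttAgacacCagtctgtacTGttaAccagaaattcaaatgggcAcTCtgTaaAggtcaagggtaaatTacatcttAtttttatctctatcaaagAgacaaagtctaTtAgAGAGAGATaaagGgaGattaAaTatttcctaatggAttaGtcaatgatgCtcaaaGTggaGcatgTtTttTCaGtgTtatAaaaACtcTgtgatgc
*Cyp2c39* (chr19:39347096-39347345, plus strand): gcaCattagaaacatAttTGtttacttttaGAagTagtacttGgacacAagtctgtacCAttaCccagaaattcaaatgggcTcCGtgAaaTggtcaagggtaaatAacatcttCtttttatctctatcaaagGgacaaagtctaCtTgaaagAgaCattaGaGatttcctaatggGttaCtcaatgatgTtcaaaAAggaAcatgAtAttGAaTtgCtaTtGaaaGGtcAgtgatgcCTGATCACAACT
*Cyp2c37*, *Cyp2c54*, *Cyp2c55* and *Cyp2c70* did not pass the test. *Cyp2c70*, which makes muricholic acids, averaged 882 ± 88.4 CPM in males and 627 ± 116 CPM in females (S.D., n = 4 each). Summed over the family, the difference was 0.55 (adjusted p = 0.051).

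The *Cyp2b* and *Cyp3a* families, inducible by drugs through the receptors CAR and PXR, held the P450 genes with the largest differences. *Cyp2b9* had 0, 0.0688, 0.515 and 0.35 CPM in control males, against 353, 224, 393 and 144 CPM in control females (log2 -10.18, S.E. 0.72, adjusted p = 6e-08). *Cyp2b13*, its near copy, had 2 counts over the 4 males and 658 over the 4 females, a ratio of 325-fold lower in males after scaling (95% exact counting interval 89.5 to 2690). *Cyp2b10* averaged 3.56 ± 2.48 CPM in males and 10.9 ± 7.63 CPM in females without passing the test (log2 -1.62, adjusted p = 0.089). *Cyp3a16* (chromosome 5, 156393229 to 156427204) had no count in any control male and 162, 92.2, 213 and 92.4 CPM in control females, 8553 counts in all, and was at least 2810-fold lower in males, taking 3 counts over the group as the limit that 0 allows. The other 4 *Cyp3a* genes tested did not pass. Among them *Cyp3a25* averaged 127 ± 23.7 CPM in males and 85.1 ± 16.8 CPM in females, *Cyp3a13* 105 ± 20.1 and 98.5 ± 32.1 CPM, and *Cyp3a11* and *Cyp3a57* were near 1 CPM or below. Members of both families can share reads, and how reads were split between them was not tested. The values of single members, low or high, are therefore uncertain. Together the *Cyp3a* counts differed by -0.48 (adjusted p = 0.11), and the *Cyp2b* counts by -6.28 (S.E. 0.54, adjusted p = 7.0e-07). Intervals and limits of this kind cover counting error only.

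All 3 *Cyp4a* genes tested, ω-hydroxylases of fatty acids that are targets of PPARα, were lower in males. *Cyp4a14* (chromosome 4, 120796272 to 120806214) had 3.06, 2.96, 5.15 and 4.32 CPM in control males, against 79.6, 136, 38.2 and 84.7 CPM in control females. The lowest female stood above the highest male. *Cyp4a10* had 7.38, 8.95, 11.0 and 14.8 CPM in control males, against 50.7, 67.3, 43.4 and 33.5 CPM in control females (log2 -2.21, S.E. 0.26, adjusted p = 3.2e-05), and *Cyp4a32* was lower by less (log2 -1.18, adjusted p = 0.0064). Neither *Cyp2a12* nor *Cyp2a5* of the *Cyp2a* family passed (0.27 and -0.86, adjusted p = 0.55 and 0.1). *Cyp2u1*, a hydroxylase of long-chain fatty acids, had 166, 94.9, 115 and 97.8 CPM in control males, against 5.87, 5.21, 15.7 and 6.44 CPM in control females (log2 3.84, S.E. 0.32, adjusted p = 5.4e-07). *Cyp17a1*, which makes androgen precursors in gonads and adrenals, had 1.80, 3.58, 4.12 and 4.55 CPM in control males, against 132, 71.3, 307 and 83.6 CPM in control females (log2 -5.40, S.E. 0.57, adjusted p = 7.2e-06). *Cyp2j6*, *Cyp2f2* and *Cyp2e1* were higher in males, by 0.85, 1.57 and 0.78.

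**Figure D2:**
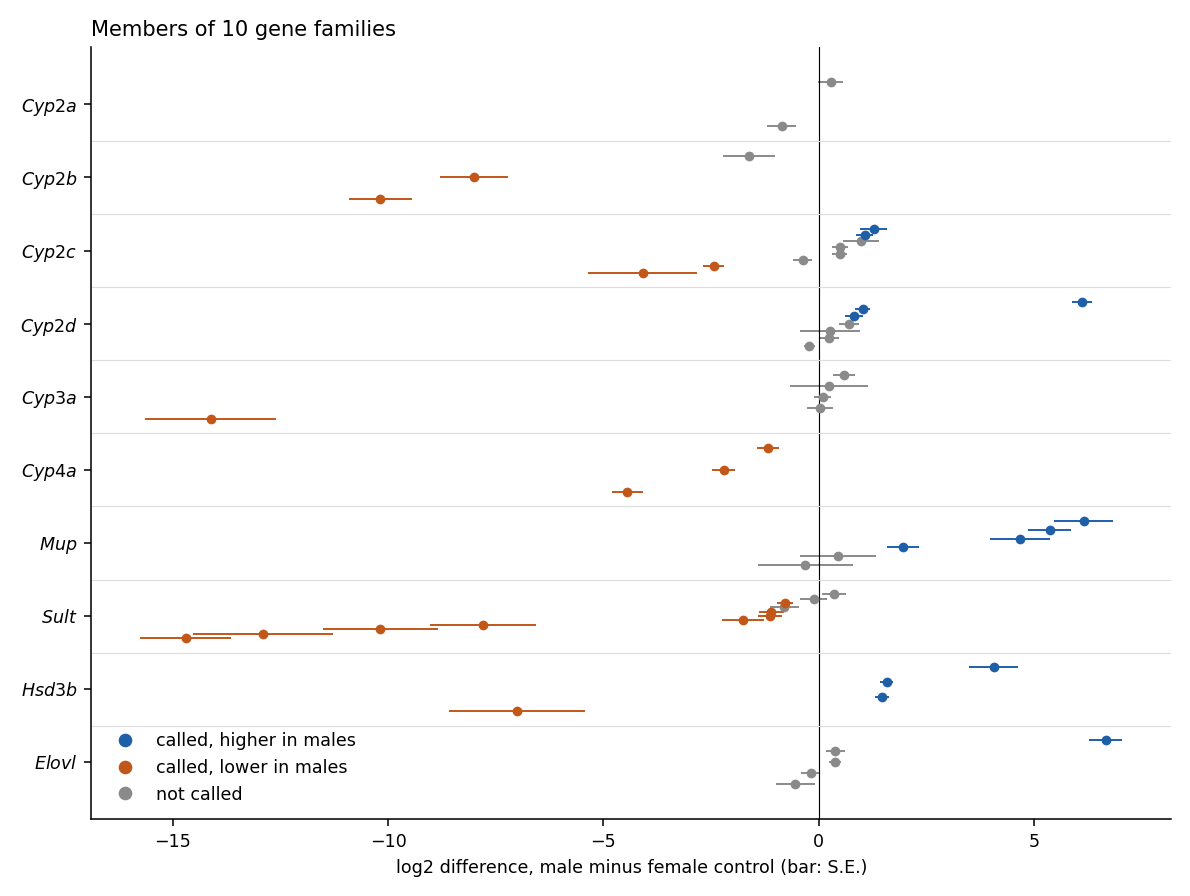
Log2 difference in CPM, male minus female control (horizontal axis), of every tested member of 10 gene families (rows), with the S.E. as a bar, called genes coloured by direction and genes not called in gray. The *Cyp4a*, *Cyp2b* and *Sult* calls lie left of 0 and the *Mup* and *Cyp2d* calls right of it, and the *Cyp2c* calls lie on both sides.

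Of the 6 *Mup* genes tested, 4 were higher in males and none was lower. *Mup3* had 9864, 8080, 8857 and 8224 CPM in control males, against 1677, 1881, 1997 and 3510 CPM in control females (log2 1.95, S.E. 0.37, adjusted p = 0.0025), and averaged 8778 FPKM in males and 2749 FPKM in females. *Mup21* (chromosome 4, 63209109 to 63212040) had 386, 353, 285 and 182 CPM in control males, against 4.78, 6.22, 6.19 and 12.1 CPM in control females (log2 5.37, S.E. 0.50, adjusted p = 1.7e-06). *Mup20*, known as darcin, the pheromone protein of male urine, averaged 5.21 ± 2.27 CPM in males and 0.0666 ± 0.0546 CPM in females, and *Mup4* averaged 2.32 ± 0.346 and 0.0888 ± 0.109 CPM. For all 4 of these the sexes did not overlap. *Mup5* averaged 21.5 ± 3.82 CPM in males and 26.8 ± 31.8 CPM in females and *Mup6* 0.27 ± 0.229 and 0.21 ± 0.256 CPM, and both failed the test. Female 4 held the highest value of *Mup5* and of *Mup6* among the females. The summed *Mup* counts differed by 1.98 (S.E. 0.29, adjusted p = 0.00032). *Mup* genes are tandem copies that can share reads, so the values of single members are uncertain.

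Genes of the *Serpina* family of protease inhibitors followed, with 4 of 11 tested genes higher and 1 lower. *Serpina1e*, an α1-antitrypsin, had 7828, 6088, 4755 and 3142 CPM in control males, against 323, 124, 451 and 919 CPM in control females (log2 3.59, S.E. 0.52, adjusted p = 0.00027). Its females were spread widely and the lowest male still stood above the highest female. *Serpina3k*, an abundant inhibitor of kallikreins, averaged 8546 ± 779 CPM in males and 4233 ± 860.0 CPM in females (log2 1.01, adjusted p = 0.0015). *Serpina12*, the adipokine vaspin, was higher as well (log2 1.49, adjusted p = 0.013), and *Serpina3g* was lower (log2 -1.25, adjusted p = 0.032), with overlap and in 3 of the 8 fits that left out 1 mouse.

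The gene with the largest difference in favour of males among named genes of at least 1 CPM on average was *Nat8f5*, of a family of N-acetyltransferases, with 25.3, 13.2, 18.5 and 6.47 CPM in control males, against 0, 0.0592, 0.2 and 0 CPM in control females. Its neighbour *Nat8*, which acetylates cysteine conjugates, averaged 33.1 ± 10.8 CPM in control males and 0.683 ± 0.132 CPM in control females. *Elovl3*, an elongase of very long chain fatty acids, had 647, 512, 681 and 338 CPM in control males, against 3.38, 5.86, 2.66 and 9.70 CPM in control females. Males and females were far apart for each. *Pitx3*, a homeobox factor known from the eye and dopaminergic neurons and the chromosomal neighbour of *Elovl3* in the table (chromosome 19, 46942066 to 46954705 and chromosome 19, 46938280 to 46941688), averaged 32.2 ± 17.9 CPM in males and 0.333 ± 0.341 CPM in females (log2 6.64, adjusted p = 2.5e-06). *Scara5*, a receptor for ferritin, differed by 4.54, *Capn8*, a calpain protease, by 5.09, *Cib3*, a calcium-binding protein, by 5.36, and the complement regulator *Susd4* by 4.15.

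**Figure D3:**
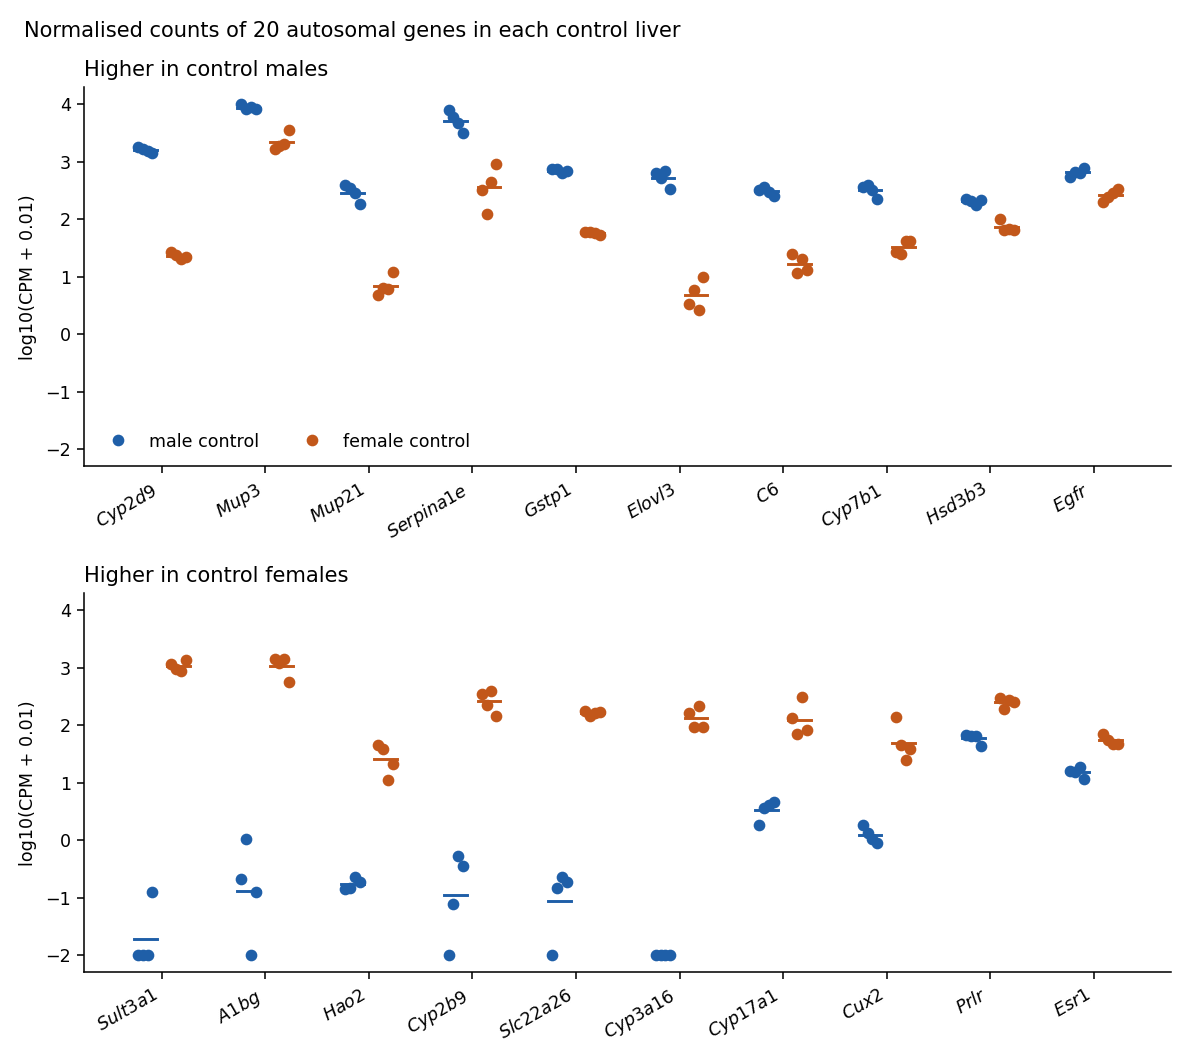
CPM of 20 genes (horizontal axis) in each control mouse, as log10(CPM + 0.01) on the vertical axis, with 1 point per mouse, males left of females, and a dash at the mean of the plotted values. For *Cyp2d9*, *Elovl3* and *Mup21* each male point lies above each female point, and for *Sult3a1*, *Hao2* and *A1bg* each lies below.

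The sulfotransferases, which add sulfate to steroids, bile acids and phenols, showed the opposite pattern. Of 11 *Sult* genes tested, 8 were lower and none was higher in males, and the summed counts differed by -1.20 (S.E. 0.24, adjusted p = 0.0049). *Sult3a1* (chromosome 10, 33107779 to 33127656), an amine sulfotransferase, had 0, 0, 0 and 0.117 CPM in control males, against 1137, 959.5, 874 and 1386 CPM in control females. These are 2 counts in the males together and 65887 in the females, a ratio of 32500-fold lower in males (95% exact counting interval 9000 to 268000). *Sult3a2* had 1 and 11454 counts, a ratio of 11300-fold (2030 to 447000). *Sult2a6* had no count in males and 562 in females and was at least 185-fold lower, and *Sult2a4*, with 0 and 106 counts, was at least 34.9-fold lower. *Sult1a1*, which acts on phenols, averaged 188 ± 19.4 CPM in males and 325 ± 94.0 CPM in females (log2 -0.79, adjusted p = 0.012). *Sult1d1*, *Sult2a7* and *Sult5a1* were also lower (-1.14, -1.76 and -1.10), and were called in 7, 4 and 5 of the 8 fits that left out 1 mouse. *Sult2a8*, *Sult1b1* and *Sult1c2* did not pass, with *Sult2a8*, which acts on bile acids, at 758 ± 81.8 CPM in males and 594 ± 359 CPM in females.

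Flavin-containing monooxygenases oxidize nitrogen and sulfur compounds. *Fmo2* (log2 -2.24, adjusted p = 0.00014), *Fmo4* (log2 -0.96, adjusted p = 0.0062) and *Fmo1* (log2 -0.80, adjusted p = 0.0023) were lower in males, with no overlap for any of the 3. *Fmo5* was higher, at 490.2 ± 33.4 CPM in males and 242 ± 138 CPM in females (log2 1.02, adjusted p = 0.036), a call that held in only 1 of the 8 fits that left out 1 mouse. *Hao2*, a peroxisomal oxidase of hydroxy acids, had 0.133, 0.138, 0.221 and 0.175 CPM in control males, against 45.5, 37.8, 11.2 and 21.4 CPM in control females (log2 -7.38, S.E. 0.83, adjusted p = 1.6e-05).

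Of the glucuronosyltransferases of *Ugt1* and *Ugt2*, 5 of 10 tested were higher and 2 lower, and the split followed the subfamily. *Ugt2b1* had 696, 744, 717 and 479.7 CPM in control males, against 215, 195, 264 and 212 CPM in control females (log2 1.57, S.E. 0.15, adjusted p = 3.2e-06), and *Ugt2b38* (3.99), *Ugt2b35* (1.03) and *Ugt2b37* (0.86) were higher too. *Ugt1a9* (-1.43) and *Ugt1a5* (-1.77) were lower, and the *Ugt1a* genes share their last exons, so counts of single members are uncertain. Among 17 glutathione S-transferases, *Gstp1* and *Gstp2* were higher in each of the 8 fits that left out 1 mouse, and *Gstt3* was lower, with overlap and in 4 of those fits. These calls are 17.6% of the family, beside 12.1% of all autosomal genes tested. *Gstp2* had 2234, 2041, 1912 and 1750 CPM in control males, against 151, 175, 213 and 147 CPM in control females (log2 3.53, S.E. 0.21, adjusted p = 4.1e-09), and *Gstp1*, its near copy, differed by 3.60. Of 13 carboxylesterases, 6 were higher and 1 was lower, among them *Ces3b* with 1103 ± 123 CPM in males and 385 ± 99.5 CPM in females (log2 1.52, adjusted p = 1.6e-05).

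Transporters of organic anions and bile acids were called on both sides. *Slc22a26* had 0, 0.138, 0.221 and 0.175 CPM in control males, against 179, 142, 164 and 168 CPM in control females (log2 -10.18, S.E. 0.38, adjusted p = 1.7e-11). *Slco1a4* was lower in males (log2 -1.90, adjusted p = 0.0032), and *Slco1a1* (log2 1.46, adjusted p = 0.029) and *Slco1b2* (log2 0.55, adjusted p = 0.021) were higher, in 2 and 6 of the 8 fits that left out 1 mouse, with female 4 at 372.6 CPM. *Slc22a7*, the organic anion transporter OAT2, averaged 139.6 ± 34.8 CPM in males and 42.7 ± 18.7 CPM in females (log2 1.71, adjusted p = 0.0012). *Abcg2*, the efflux pump BCRP, had 74.1, 68.2, 68.0 and 63.4 CPM in control males, against 21.2, 17.1, 19.4 and 16.1 CPM in control females (log2 1.89, S.E. 0.13, adjusted p = 6e-08). *A1bg*, a secreted glycoprotein of the immunoglobulin family, had 0.2, 1.03, 0 and 0.117 CPM in control males, against 1410, 1186, 1428 and 565 CPM in control females (log2 -11.72, S.E. 1.13, adjusted p = 2.6e-06), and averaged 687 FPKM in females.

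STAT5 and related factors bind the palindrome TTCNNNGAA, which reads the same on both strands, and the 250 bases before each RefSeq start were searched for it. It was present for 2112 of 25748 autosomal genes (8.20%) and for 714 of the 9668 that were tested (7.39%). Among genes called higher in males it was present for 52 of 628 (8.28%), and among those called lower for 50 of 554 (9.03%). Of the 20 largest differences in each direction, 2 of 17 with a promoter higher in males and 3 of 14 lower in males held it. A match is a run of letters and not a measured site. The 3 lower genes are printed as the 150 bases before the start, chosen after their values were seen, with the palindrome in capitals.
*Sult3a1* (chr10:33857572-33857721, plus strand): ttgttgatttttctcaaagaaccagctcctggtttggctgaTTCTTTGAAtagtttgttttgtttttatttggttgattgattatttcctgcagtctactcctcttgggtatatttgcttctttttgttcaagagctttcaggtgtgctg
*A1bg* (chr15:60921271-60921420, minus strand): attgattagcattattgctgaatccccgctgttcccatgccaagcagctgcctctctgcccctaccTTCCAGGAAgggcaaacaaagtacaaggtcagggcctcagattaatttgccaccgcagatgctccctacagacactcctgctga
*Slc22a26* (chr19:7802668-7802817, minus strand): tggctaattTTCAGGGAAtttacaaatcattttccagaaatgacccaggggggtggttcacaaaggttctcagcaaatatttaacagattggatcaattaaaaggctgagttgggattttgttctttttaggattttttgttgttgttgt
The matches lie at -109 to -101 in *Sult3a1*, at -84 to -76 in *A1bg* and at -141 to -133 in *Slc22a26*, counted from the start. The *Dbp* promoter, of a gene higher in males, held TTCCGCGAA.

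Of 26 genes of steroid hormone metabolism tested, 9 were higher and 3 lower in males, with a median log2 difference of 0.15. Calls made up 46.2% of the list, beside 12.1% of all autosomal genes tested. Of 4 tested *Hsd3b* genes, which convert and inactivate steroids, 3 were higher. *Hsd3b3* had 222, 203, 177 and 213 CPM in control males, against 100.3, 63.6, 68.5 and 64.0 CPM in control females (log2 1.46, S.E. 0.16, adjusted p = 1.4e-05). *Hsd3b2* (log2 1.58, adjusted p = 3.4e-06) and *Hsd3b4* (log2 4.06, adjusted p = 0.00016) were higher as well, and *Hsd3b1*, with 0 counts in males and 61 in females, was at least 20.1-fold lower. The summed *Hsd3b* counts differed by 1.49 (S.E. 0.16, adjusted p = 7.3e-06). The 17β-hydroxysteroid dehydrogenases were not called lower in any case, and 4 of 8 tested were higher, *Hsd17b13* at 0.82 (in 6 of the 8 fits that left out 1 mouse), *Hsd17b11* at 0.79, *Hsd17b12* at 0.68 and *Hsd17b4* at 0.65. *Akr1c20* was lower (log2 -0.45, adjusted p = 0.029), in 4 of the 8 fits that left out 1 mouse, and *Hsd11b1*, which regenerates active glucocorticoid, averaged 562 ± 32.1 CPM in males and 500.3 ± 116 CPM in females without passing.

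In bile acid synthesis and transport, 10 of 35 genes tested were higher and 3 lower, with a median of 0.30, and without female 3 the counts were 15 and 2. With all mice the share called was 37.1%, beside 12.1% of all autosomal genes tested. *Cyp7b1*, the oxysterol 7α-hydroxylase of the acidic pathway, had 361, 393, 319.9 and 226 CPM in control males, against 26.3, 24.6, 40.9 and 41.8 CPM in control females (log2 3.28, S.E. 0.21, adjusted p = 9.9e-09). *Scp2*, the sterol carrier protein and peroxisomal thiolase, had 4453, 4474, 4753 and 4383 CPM in control males, against 1201, 1555, 1212 and 1517 CPM in control females (log2 1.72, S.E. 0.14, adjusted p = 4.6e-07), and averaged 3827 FPKM in males. *Amacr*, the racemase of bile acid intermediates, was higher by 0.65. *Slco1a4*, *Abcb1a* (-1.70) and *Cyp39a1* (-1.22), an oxysterol hydroxylase, were lower, the last in 3 of the 8 fits that left out 1 mouse and the others in all 8. The bile salt pump *Abcb11* averaged 802 ± 68.9 CPM in males and 713 ± 228 CPM in females and did not pass (log2 0.17, adjusted p = 0.62). Of 28 genes of cholesterol synthesis and uptake, 1 was called, *Scarb1*, the HDL receptor, higher in males (log2 0.68, adjusted p = 0.043), and it kept its call in 1 of the 8 fits that left out 1 mouse.

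Of 49 genes for fatty acid uptake, lipoproteins and storage, 4 were higher and 5 lower, and of 25 for synthesis and elongation, 3 and 2, with medians of 0.24 and 0.00, beside shares of 6.10% higher and 5.98% lower over all genes tested. *Fitm1*, which forms lipid droplets, had 60.3, 50.7, 40.3 and 26.4 CPM in control males, against 5.17, 5.69, 6.45 and 4.29 CPM in control females (log2 3.04, S.E. 0.27, adjusted p = 1e-06). *Apoa1*, the main protein of HDL, averaged 11950 ± 1950 CPM in males and 7115 ± 853 CPM in females (log2 0.75, adjusted p = 0.01). *Slc27a2*, the gene deleted in the other mice, had 915, 889, 837 and 914 CPM in control males, against 527, 561, 615 and 508 CPM in control females (log2 0.68, S.E. 0.16, adjusted p = 0.012), and was called in each fit that left out 1 mouse. Over all 17 other settings, those fits included, *Slc27a2* was called in 15 and *Apoa1* in 13. The settings include the cut at a log2 difference of at least 1.5, which neither gene reached. *Cd36*, a fatty acid translocase, *Fabp5*, a fatty acid binding protein, *Vldlr* and *Lpin1*, a phosphatidate phosphatase, were lower, and each lost its call in 4 or more of the 8 fits that left out 1 mouse. *Pnpla3*, a lipase of lipid droplets, had 8.25, 12.4, 7.80 and 7.46 CPM in control males, against 131, 56.3, 103 and 15.3 CPM in control females (log2 -3.09, S.E. 0.65, adjusted p = 0.0056). *Scd1* (log2 0.10, adjusted p = 0.89) and *Fasn* (log2 -0.20, adjusted p = 0.84), the abundant enzymes of desaturation and synthesis, did not pass.

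Of 45 genes of fatty acid oxidation and PPARα targets, 6 were higher and 8 lower, with a median of 0.02. Together the calls are 31.1% of the list, beside 12.1% of all autosomal genes tested. Mitochondrial and peroxisomal thiolases were higher, *Acaa2* by 0.65 and *Acaa1a* by 0.48, as were *Acads*, an acyl-CoA dehydrogenase, by 0.58 (in 5 of the 8 fits that left out 1 mouse) and *Retsat*, a retinol saturase, by 1.00. Acyl-CoA thioesterases, which release free fatty acids, were lower in 4 of 9 tested and higher in none. *Acot3* had 0.399, 0.964, 0.294 and 0.525 CPM in control males, against 67.0, 61.2, 27.5 and 33.8 CPM in control females (log2 -6.42, S.E. 0.44, adjusted p = 4e-08), and *Acot4* (-1.74), *Acot1* (-1.51) and *Acot6* (-1.63) followed. *Abcd2*, a peroxisomal transporter of very long chain acyl-CoA, had 4.46, 5.16, 2.35 and 11.7 CPM in control males, against 76.3, 90.1, 42.3 and 49.0 CPM in control females (log2 -3.43, S.E. 0.35, adjusted p = 4.4e-06).

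Of 45 genes of complement, coagulation and the acute phase, 42.2% were called, beside 12.1% of all autosomal genes tested. In the list, 15 were higher and 4 lower, with a median of 0.35, and 24 and 4 were called without female 3. The terminal complement components, which assemble the membrane attack complex, were among them. *C6* had 326, 361, 291 and 248 CPM in control males, against 24.6, 11.6, 20.6 and 13.1 CPM in control females (log2 4.13, S.E. 0.23, adjusted p = 2.7e-09). *C8a* had 745, 809, 843 and 688 CPM in control males, against 158, 129, 115 and 166 CPM in control females (log2 2.44, S.E. 0.16, adjusted p = 2.4e-08), and *C8b* (2.04) and *C9* (1.72) were higher too. None of these 4 overlapped between the sexes. *Apcs*, serum amyloid P, averaged 41.7 ± 5.99 CPM in males and 145 ± 63.3 CPM in females (log2 -1.79, adjusted p = 0.00013), and the lectin *Mbl2* (log2 -0.88, adjusted p = 0.00078) was lower as well. *C3*, the central component, did not pass (log2 -0.14, adjusted p = 0.83). Of 28 urea cycle, gluconeogenesis and amino acid genes, *Tdo2*, which degrades tryptophan, was the one called (log2 1.05, adjusted p = 0.002), and without female 3 there were 10, all higher.

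In growth hormone and cytokine signaling, 1 of 27 genes tested was higher and 2 were lower, with a median of -0.19. That is 11.1% called, beside 12.1% of all autosomal genes tested. The genes of the receptor, JAK2 and STAT5b did not pass, with *Ghr* at 719 ± 41.2 CPM in males and 596 ± 101 CPM in females (log2 0.27, adjusted p = 0.2), *Jak2* at -0.22 and *Stat5b* at -0.13. *Prlr*, the prolactin receptor, had 67.0, 65.8, 65.3 and 43.3 CPM in control males, against 301, 188, 276 and 251 CPM in control females (log2 -2.07, S.E. 0.21, adjusted p = 5.9e-06). *Egfr*, the epidermal growth factor receptor, had 549, 666, 636 and 766 CPM in control males, against 202, 243, 282 and 337 CPM in control females (log2 1.30, S.E. 0.23, adjusted p = 0.0017), and *Igfbp1* was lower (log2 -1.98, adjusted p = 0.00082). *Cish*, a STAT5 target and inhibitor of cytokine signaling, had 0.466, 1.24, 1.25 and 14.9 CPM in control males, against 35.7, 32.6, 14.1 and 21.4 CPM in control females, where male 4 overlapped the females and the test did not pass (log2 -2.51, adjusted p = 0.087). *Igf1*, the growth factor made under growth hormone, averaged 582 ± 33.4 CPM in males and 779 ± 180.4 CPM in females (log2 -0.42, adjusted p = 0.098).

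Of 41 transcription factors and nuclear receptors tested, 3 were higher and 6 lower, with a median of -0.05. The share called was 22.0%, beside 12.1% of all autosomal genes tested (6.10% higher and 5.98% lower). *Cux2*, a repressor known for its female-biased expression in liver, had 1.80, 1.31, 1.03 and 0.875 CPM in control males, against 139.8, 45.1, 24.6 and 38.0 CPM in control females (log2 -5.62, S.E. 0.54, adjusted p = 2.5e-06). *Trim24* (log2 -2.12, adjusted p = 4.9e-07), the estrogen receptor *Esr1* (log2 -1.84, adjusted p = 5.4e-07), *Tox* (log2 -1.59, adjusted p = 0.0023), the receptor CAR, *Nr1i3* (log2 -1.06, adjusted p = 0.0021), and *Afp* (log2 -0.98, adjusted p = 0.0076), which is a fetal serum protein that the list holds as a target of *Zhx2*, were lower too. *Nr0b2*, the receptor SHP that represses bile acid synthesis, was higher (log2 1.36, adjusted p = 0.0045), as were *Cux1* (log2 0.55, adjusted p = 0.0073) and *Zhx2* (log2 0.59, adjusted p = 0.032), the last with overlap and in 2 of the 8 fits that left out 1 mouse. *Bcl6*, a repressor that opposes STAT5, had 110.3, 142, 119 and 18.8 CPM in control males, against 58.4, 19.5, 15.8 and 18.1 CPM in control females. It missed the threshold (log2 1.80, adjusted p = 0.071), with male 4 within the range of the females. It was called in 2 of the 8 fits that left out 1 mouse, those without female 1 and without male 4. *Hnf4a* (log2 0.11, adjusted p = 0.71) and *Ppara* (log2 0.02, adjusted p = 0.98) did not pass.

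Lists of genes known to be sex-biased in mouse liver were compiled. Of 38 male-biased genes tested, 29 were higher and 2 lower in males, with a median of 1.86. The 2 lower were *Nipal1*, a magnesium transporter (log2 -3.52, adjusted p = 2e-06), and *Gadd45g*, a stress gene (log2 -2.81, adjusted p = 0.0053). Of 57 female-biased genes tested, 41 were lower and 3 higher, with a median of -1.83. The 3 higher were *Tff3*, a mucosal peptide, with 202 counts in males and 3 in females (a ratio of 68.2-fold, interval 23.0 to 334), *Aldh1a1*, a retinal dehydrogenase (log2 1.13, adjusted p = 0.0026), and *Spon2* (log2 0.83, adjusted p = 0.047), which was called in 3 of the 8 fits that left out 1 mouse. These lists were compiled with results of these data known.

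**Figure D4:**
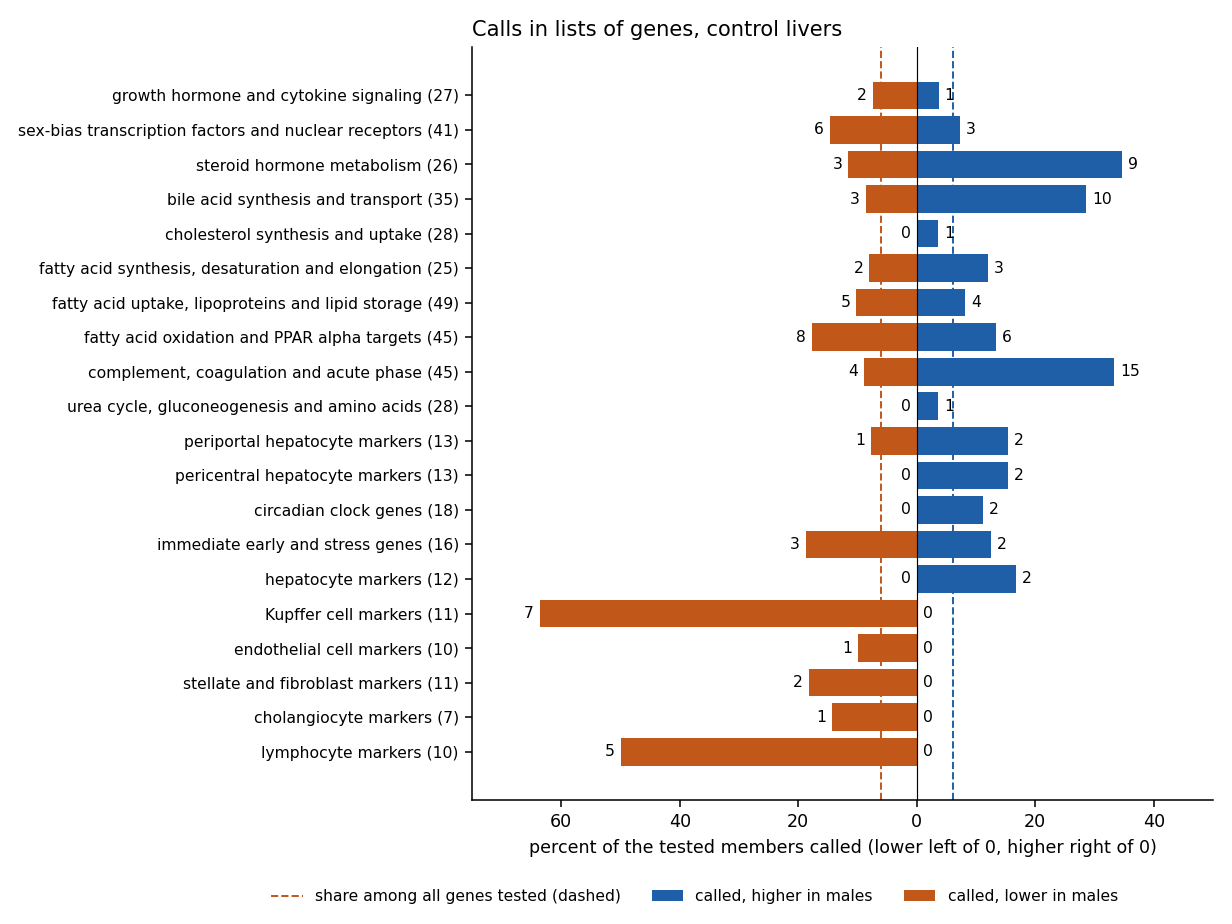
For each of 20 gene lists (rows, with the number tested; the male-biased and female-biased lists and a few marker lists are not drawn), the percent of its tested genes called higher in control males (bars to the right of 0) and lower (bars to the left), with the number of genes at each bar and the shares over all genes tested, 6.10% and 5.98%, as dashed lines. Among the lists drawn, the steroid, bile acid and complement genes reach farthest to the right and the Kupffer cell and lymphocyte markers, with 7 of 11 and 5 of 10 lower, farthest to the left.

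Markers of other cells also moved with sex, and in whole liver fewer cells of a type and less RNA per cell cannot be told apart. Of 11 Kupffer cell markers tested, 7 were lower and none higher in males, with a median of -0.78 and sums of 373 to 558 CPM in males and 622 to 1194 CPM in females. *Clec4f* averaged 115 ± 18.7 CPM in males and 194 ± 46.4 CPM in females (log2 -0.75, adjusted p = 0.0064), and *C1qa* (-0.85) and *Folr2* (-0.99) were lower too. Of 10 lymphocyte markers, 5 were lower, the T cell genes *Cd3e* (log2 -1.94, adjusted p = 0.00077), *Cd3d*, *Cd8a* and *Gzma* among them, while the marker sums overlapped, at 19.2 to 52.8 CPM in males and 30.8 to 45.1 CPM in females. Of 12 hepatocyte markers 2, *Apoa1* and *Ttr*, were higher, *Ttr* in 2 of the 8 fits that left out 1 mouse, and 7 were higher without female 3. All 12, called or not, had a difference above 0, with a median of 0.51. The endothelial (0 and 1 of 10, higher and lower), stellate (0 and 2 of 11) and cholangiocyte (0 and 1 of 7) markers had 1 or 2 calls each. Over all autosomal genes tested, 12.1% were called, and lists this short cannot be set apart from that share. No endothelial or stellate marker tested, called or not, had a difference above 0, with medians of -0.19 and -0.29. Of the cholangiocyte markers 3 of 7 did, with a median of -0.06. The muscle and pancreas markers had no calls. The part of these cell markers in the results was not tested.

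Of 18 clock genes tested, 2 were called (11.1%, beside 12.1% of all autosomal genes). *Dbp*, a clock output factor, had 9.44, 31.3, 22.4 and 59.1 CPM in control males, against 6.89, 2.49, 1.86 and 0.444 CPM in control females (log2 3.37, S.E. 0.90, adjusted p = 0.022), and *Per2* was higher (log2 0.99, adjusted p = 0.019). *Dbp* was called in 5 and *Per2* in 6 of the 8 fits that left out 1 mouse, and neither was called without female 2. *Nr1d1* averaged 164 ± 34.3 CPM in males and 56.4 ± 52.5 CPM in females and did not pass. The metallothioneins, which bind zinc and rise under stress, were lower in males, *Mt1* with 5.52, 4.20, 5.00 and 7.52 CPM in control males, against 80.2, 61.3, 149 and 49.2 CPM in control females (log2 -3.92, S.E. 0.51, adjusted p = 7.3e-05), and *Mt2* at a log2 difference of -4.79. The hour of collection was not given, and its part in these values was not tested.

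In the *Fatp2*-/- livers, 569 autosomal genes (4.16%) were called by sex, 288 higher (2.11%) and 281 lower (2.05%) in males. All 5 pancreas acinar markers tested were higher in males, with sums over 12 markers of 48.4, 371, 40.7 and 203 CPM in male *Fatp2*-/- mice and 15.5, 13.8, 16.02 and 15.8 CPM in female *Fatp2*-/- mice. Skeletal muscle markers summed to 4237 CPM in male *Fatp2*-/- 4 and 234.5 CPM in female *Fatp2*-/- 4, with at most 2.83 CPM in the other 6. Without male *Fatp2*-/- 4 the counts were 258 and 284, and the part of these markers in the other calls was not tested. Of the genes higher in control males, 204 (24.5%) were also called higher in *Fatp2*-/- males, and of those lower, 211 (25.8%) were called lower. None was called in opposite directions. The median *Fatp2*-/- difference was 0.34 over the genes higher in control males and -0.61 over those lower. A difference between the 2 genotypes, control minus *Fatp2*-/-, was called for 1 gene (0.00731%), and 842 genes (6.15%) had an unadjusted p of at most 0.05. DESeq2 called 31. *Cyp4a14* was the gene called. It had 1925, 1276, 1885 and 1225 CPM in male *Fatp2*-/- mice and 2296, 3708, 2002 and 2166 CPM in female *Fatp2*-/- mice, and the sex difference there was -0.69 (S.E. 0.30, adjusted p = 0.24). The genotypes differed by -3.76 (S.E. 0.46, adjusted p = 0.0034). *Cyp4a10* had a difference of -1.52 without passing (adjusted p = 0.4). *Sult3a1*, *A1bg*, *Cyp2d9*, *Elovl3* and *Mup21* were called in both genotypes, with *Fatp2*-/- differences of -13.24, -12.95, 5.52, 4.95 and 6.13. *Slc27a2* itself differed by -0.06 between the *Fatp2*-/- sexes (adjusted p = 0.88), and the 2 sex differences were not told apart (0.75, adjusted p = 0.69).

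**Figure D5:**
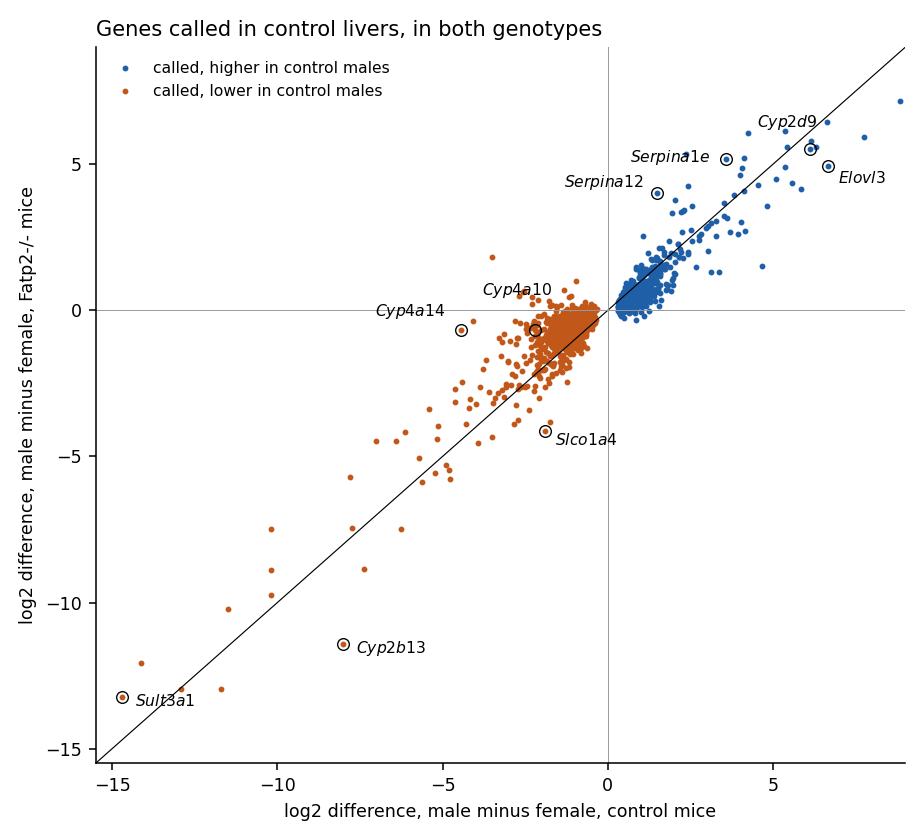
Log2 difference in CPM, male minus female, in control mice (horizontal axis) against the same in *Fatp2*-/- mice (vertical axis), for the 1652 genes called in controls. The diagonal marks equal differences, and *Cyp4a14*, at -4.45 in controls and -0.69 in *Fatp2*-/- mice, lies far above it.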

How the data were processed

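Livers were lysed in QIAzol, libraries were made with a TruSeq kit and sequenced paired end. Per the labels and methods, reads were aligned by TopHat2 (version 2.0.12, on Bowtie2 2.2.3) and assigned to genes by HTSeq 0.6.1 in its union mode. The authors deposited the resulting counts as whole numbers without scaling. The authors also deposited FPKM values, which scale the counts by gene length and total and were used for levels of different genes. Gene identifiers and positions follow a C57BL/6NJ annotation although the study names GRCm38, and counting by strand is not stated in the sources used here. Of 41096 genes, 31507 had a count, 10690 had no name and 36 were named from the KEGG column. The 4 rows that name no gene were left out, and 24 names turned into dates were not matched to lists.

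R 4.3.3 with edgeR 4.0.16 was used to fit 4 group means over the 16 mice. Genes were kept by filterByExpr (minimum count 10, minimum total 15), scaled by TMM and tested by the quasi-likelihood test, with Benjamini-Hochberg adjustment at 0.05 over 14079 genes. An S.E. is the absolute log2 difference divided by the square root of F. Total counts give the depth. The p-values set a difference against the spread between mice within groups of 4, estimated over all 16 mice together, so those for controls also use the *Fatp2*-/- mice. Steps were tested on simulated data.

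Named genes were, by rule, called genes of known symbol without overlap and with mean log2 CPM no lower than 0 (the 20 largest differences each way), all tested members of the main families and of the signaling and transcription factor lists, and from other lists up to 4 each way by adjusted p and up to 3 of the highest that did not pass, plus *Slc27a2*. Members and lists were chosen with earlier results of these data known. Genes named from the KEGG column among tandem copies, such as *Cyp2b9*, *Gstp1*, *Gstp2*, *Serpina1e*, *Hsd3b4*, *Mup4*, *Mup20*, *Sult2a4* and *Cyp4a10*, may hold reads of a neighbour. Other settings tried were upper-quartile and RLE factors, no filter, at least 10 counts in every library, a log2 difference of at least 1.5, DESeq2 1.42.0, limma 3.58.1 (voom, and log2(FPKM + 0.1)), only the 8 controls, and leaving out each control mouse, and male *Fatp2*-/- 4, the last chosen after the data were seen. Results for a few genes that the rule selects are left out here.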

Additional observations from a re-analysis of the deposited data

Results flagged for a closer look

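The difference between the genotypes in the sex difference of *Cyp4a14* was -3.76 on the log2 scale, control minus *Fatp2*-/-, by edgeR's test of the difference itself. For the genes and sums named, 392 groups of 4 mice were searched for 1 mouse far from the other 3, and 38 were found, where chance gives about 1 in 20.

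Male 4 held 9 of them. It was the highest male for *Sult1d1* (145.3 CPM), *Sult3a1* (0.117), *Fmo1* (153), *Fmo2* (11.2), *Fmo4* (9.62), *Tox* (4.49), *Fabp5* (77.7) and *Cish* (14.9), and the lowest for *Prlr* (43.3). Male 1 held 7. It was the lowest male for *Mup5* (15.8), *Ugt1a9* (4.99) and the summed clock genes (577), and the highest for *Cyp2c39* (20.8), *Vldlr* (3.52), the summed lymphocyte markers (52.8) and the summed erythroid markers (0.665). Male 2 was high for *Sult3a2* (0.0689), *Pnpla3* (12.4) and *Hspa1b* (155.2) and low for the summed female-biased genes (2763). Male 3 was high for *Cyp2d40* (103.5), *Scara5* (18.6) and *Fasn* (1778).

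Female 4 held 7. It was high for *Mup5* (73.9), *Mup6* (0.592), *Slco1a1* (373) and *Cyp3a11* (1.18), and low for *Cyp2b13* (3.63), *Hsd17b13* (98.7) and *Nr0b2* (26.8). Female 1 was high for *Hsd3b3* (100.3), *Bcl6* (58.4), *Clec4f* (262.5) and the summed lymphocyte markers (45.1). Female 3 was high for *Cyp2u1* (15.7), *Mt2* (76.0) and *Hspa1b* (40.4) and low for *Fmo2* (24.1). Female 2 held none. The male values of *Sult3a1* and *Sult3a2* are 2 counts and 1 count in 1 mouse beside 0 in the other 3, so they set no mouse apart.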

How the results depend on the processing

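The counts of control genes called higher and lower in males, 834 and 818, were 102 and 231 at a log2 difference of at least 1.5, 403 and 1659 with limma on log2(FPKM + 0.1), 315 and 386 with only the 8 controls, and 533 and 622 without a filter. Leaving out 1 control mouse gave 515 to 1615 higher and 477 to 1353 lower. For the *Fatp2*-/- sex difference, the counts were 113 and 118 at a log2 difference of at least 1.5 and 428 and 441 with DESeq2. Leaving out 1 control mouse gave 258 to 391 higher and 275 to 374 lower. Those fits keep all 8 *Fatp2*-/- mice, so they cannot show how far this difference rests on any of them. Of the *Fatp2*-/- mice only male *Fatp2*-/- 4 was left out, after its muscle markers were seen, which gave 258 and 284. The difference between genotypes was called for 18 genes without a filter and 31 with DESeq2. It was called for 1 to 2 when 1 control mouse or male *Fatp2*-/- 4 was left out. The cause of these shifts was not tested. Over the named genes, 2870 results kept their side of the threshold, 38 gained a call, 226 lost one and 0 reversed. No paired analysis was possible because the labels give no replicate numbers. Genes at few counts are limited by depth, and their ratios carry wide intervals.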

Other observations

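Hepatocytes near the portal vein and near the central vein carry different enzymes. Of 13 periportal markers tested, 2 were higher and 1 lower in control males. The calls are 23.1% of the periportal and 15.4% of the 13 pericentral markers, beside 12.1% of all autosomal genes tested. Lists this short cannot be set apart from that share. *Cyp2f2* averaged 986 ± 106 CPM in males and 332 ± 199 CPM in females (log2 1.57, S.E. 0.30, adjusted p = 0.0034), and *Ctsc*, a lysosomal protease, averaged 52.4 ± 11.2 CPM in males and 137 ± 10.2 CPM in females (log2 -1.38, adjusted p = 3.3e-05). Of 13 pericentral markers, 2 were higher and none was lower, *Cyp2e1* at 5781 ± 579.8 CPM in males and 3375 ± 388 CPM in females (log2 0.78, adjusted p = 0.0081) and *Gulo*, of vitamin C synthesis, at 632 ± 53.3 CPM in males and 369.7 ± 171 CPM in females (log2 0.77, adjusted p = 0.049). *Glul*, glutamine synthetase of the pericentral cells, averaged 1355 ± 151 CPM in males and 1306 ± 317 CPM in females (log2 0.05, adjusted p = 0.87) and did not pass. *Gulo* was called in 1 of the 8 fits that left out 1 mouse.

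Of 16 immediate early and stress genes tested, 2 were higher and 3 lower in control males. Calls made up 31.2% of this short list, beside 12.1% of all autosomal genes tested. *Hspa1b*, an inducible heat shock protein, had 57.3, 155, 41.2 and 53.0 CPM in control males, against 14.0, 10.8, 40.4 and 12.1 CPM in control females (log2 1.99, S.E. 0.48, adjusted p = 0.014), and *Ddit3* was higher by 0.75. *Hspa1b* was not called without male 2, nor *Ddit3* without male 1. The 3 lower were *Gadd45b* (log2 -1.67, adjusted p = 0.013) and the metallothioneins *Mt1* and *Mt2*. Among 5 adipocyte markers, *Adrb3*, the β3-adrenergic receptor, was the one called, with 37.1, 22.6, 26.2 and 12.8 CPM in control males, against 10.3, 10.8, 10.8 and 10.7 CPM in control females (log2 1.21, S.E. 0.25, adjusted p = 0.0048). *Nt5e*, which makes adenosine from AMP, had 5.32, 6.88, 6.33 and 7.99 CPM in control males, against 122, 101, 84.1 and 80.6 CPM in control females (log2 -3.87, S.E. 0.19, adjusted p = 3.5e-10).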
